A study of Mus musculus with 9 samples.

Results

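The genes described here are 9 genes of the Hippo pathway and of its effectors YAP and TAZ: the matricellular genes Cyr61 and Ctgf, the ankyrin repeat gene Ankrd1, the angiomotin-like genes Amotl1 and Amotl2, the coactivator genes Yap1 and Wwtr1, and the kinase genes Lats1 and Lats2. They were chosen by symbol, with earlier results of these data known, and all 9 were found among the 23205 symbols of the deposited transcript table. The study measured polyadenylated RNA in NIH3T3 mouse fibroblasts carrying OptoSOS, a light-controlled switch in which a phytochrome held at the plasma membrane (transgene Phy-mCherry-CAAX) recruits a catalytic fragment of SOS2, an exchange factor that activates Ras (transgene YFP-PIF-SOS2cat). By the labels, 1 library each was made at 30, 60 and 120 min after 100 ng/mL PDGF, 1 each at 30, 60 and 120 min after light, and 3 from unstimulated cells. All 9 libraries carry both transgenes, and all cells were starved of serum overnight and given 10 µM phycocyanobilin, the chromophore of the switch. The labels do not say whether the line is a single clone.

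The table holds 12 columns of values, 3 more than the labels have samples, and each is named only by a number inside its cells, q1 to q12. None of the labels gives these numbers, so no column was assigned to PDGF, light or unstimulated cells, and no comparison between those groups was made. What follows gives the level, the spread and the co-variation of the genes over the 12 unnamed columns. The columns cannot be treated as replicates, so no test was run, and no mean or SD is given.

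LATS1 and LATS2 are kinases that phosphorylate YAP and its relative TAZ, the product of Wwtr1, and thereby hold them in the cytoplasm. When they are not phosphorylated, YAP and TAZ enter the nucleus and bind TEAD factors, which recognise DNA but need a coactivator. CTGF, CYR61, ANKRD1 and AMOTL2 transcripts are widely used as readouts of this activity. Angiomotin proteins bind YAP and restrain it. Amotl2 and Lats2 are known as YAP targets whose products act back on YAP. In fibroblasts the pathway is known for responding to serum, matrix stiffness and cell spreading, and Cyr61 was first described in mouse fibroblasts as an immediate early gene of serum stimulation.

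The promoters of Cyr61, Ankrd1 and Amotl2, targets that varied over the columns, are shown because the TEAD recognition core lies in them. They are RefSeq sequences of build GRCm38.p6, from 250 bases before to 50 after the start site, and the capitals mark CATTCC or its reverse complement GGAATG. The Cyr61 window, listed under the current symbol Ccn1, is chr3:145649936-145650235 on the minus strand, that of Ankrd1 is chr19:36119795-36120094 on the minus strand, and that of Amotl2 is chr9:102717554-102717853 on the plus strand.
Cyr61: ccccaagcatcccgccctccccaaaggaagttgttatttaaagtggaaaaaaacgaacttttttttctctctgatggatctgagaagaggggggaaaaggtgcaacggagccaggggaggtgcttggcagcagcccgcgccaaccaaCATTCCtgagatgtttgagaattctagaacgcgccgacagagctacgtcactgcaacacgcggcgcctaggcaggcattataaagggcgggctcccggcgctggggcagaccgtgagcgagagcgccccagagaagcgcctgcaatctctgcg
Ankrd1: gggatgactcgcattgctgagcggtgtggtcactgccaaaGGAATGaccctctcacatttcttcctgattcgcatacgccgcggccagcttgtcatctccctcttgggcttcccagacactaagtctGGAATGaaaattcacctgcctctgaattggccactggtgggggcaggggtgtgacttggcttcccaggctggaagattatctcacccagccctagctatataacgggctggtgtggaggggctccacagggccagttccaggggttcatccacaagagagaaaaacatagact
Amotl2: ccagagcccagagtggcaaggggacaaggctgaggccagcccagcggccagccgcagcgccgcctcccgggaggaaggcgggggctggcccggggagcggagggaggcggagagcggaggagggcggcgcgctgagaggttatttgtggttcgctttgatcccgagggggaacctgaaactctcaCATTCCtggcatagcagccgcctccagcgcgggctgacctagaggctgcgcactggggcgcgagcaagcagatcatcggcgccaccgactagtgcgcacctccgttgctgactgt
The core began at -103 from the start site in Cyr61, at -65 in Amotl2, and at -210 and -123 in Ankrd1. Promoters of 8 of the 9 genes, all but Ctgf, were matched in the RefSeq table, and 6 of these genes had the core on either strand in a window of 300 bases. It was also present in the windows of Yap1 and Wwtr1 and in 1 of the windows of Lats2, and not in those of Amotl1 and Lats1. Of all 32851 windows of the same length, 14.7% held it. That is a share of windows, whereas the 8 genes had 10 windows, with more than 1 each for Wwtr1 and Lats2. The Wwtr1 windows overlap. The genes were chosen as regulators or known targets of YAP, so no excess over that share is read from these counts. The CRE core TGACGT, on either strand, was found at -59 in Cyr61 and at -122 in Amotl1, against 7.51% of all windows. The AP-1 site TGANTCA, on either strand, and the CArG box were in none of the windows of these genes, against 7.81% and 1.63% of all windows. No site of one motif overlapped a site of another. These matches describe letters only. The files' own build is mm9, and no coordinate was converted.

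Across the table, the columns differed in depth. Read coverage per FPKM (a fragment density normalised for transcript length and library depth) is proportional to depth, and it was 3.25 times as high in the deepest column, q8, as in the shallowest, q1. The summed FPKM lay between 382402 and 545360, with the highest sum in q1. No pair of columns held identical values, and r between columns was 0.918 to 0.984 on log2(FPKM + 1) over the 10390 genes with a median of at least 1 FPKM. Fibroblast markers were present, with all 10 at a median of at least 1 FPKM and a summed level of 8132 to 13320 FPKM. The summed level of the epithelial markers was 0.804 to 1.90 FPKM, of the blood markers 1.69 to 4.02, of the endothelial markers 0.0793 to 0.207, of the neural markers 5.67 to 9.22 and of the muscle markers 0.0328 to 0.197. The neural sum was almost wholly Tubb3, a neuronal tubulin, with a median of 7.94 FPKM. Epcam, Lyz2, Cd3e and Myog, which mark epithelial, myeloid, T and muscle cells, were listed at 0 in every column. Other markers of the same lists were not: the blood sum was almost wholly Cd68, with a median of 1.985 FPKM. The epithelial sum was mostly Krt8 and Cdh1, with medians of 0.871 and 0.639 FPKM.

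Cyr61, Ctgf, Ankrd1 and Amotl2 varied most over the columns, the coactivator genes Yap1 and Wwtr1 varied least, and the kinase genes and Amotl1 lay between. The range of a gene is its highest over its lowest value, with 1 FPKM added to each. A range of at least 2-fold was found for 4 of the 9 genes, Cyr61, Ctgf, Ankrd1 and Amotl2, against 20.9% of the 10390 genes with a median of at least 1 FPKM. Among the 4966 of these genes whose median lay within that of the 9 genes, the share was 19.6%. A range of at least 4-fold was found for Cyr61 and Ankrd1, against 3.11% of all such genes. The 9 genes were chosen with earlier results of these data known, so these counts are descriptions only. The median range was 1.93-fold over the 9 genes and 1.63-fold over all 10390. In RNA from bulk cultures, more cells expressing a gene and more RNA per cell cannot be told apart.

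**Figure D1:**
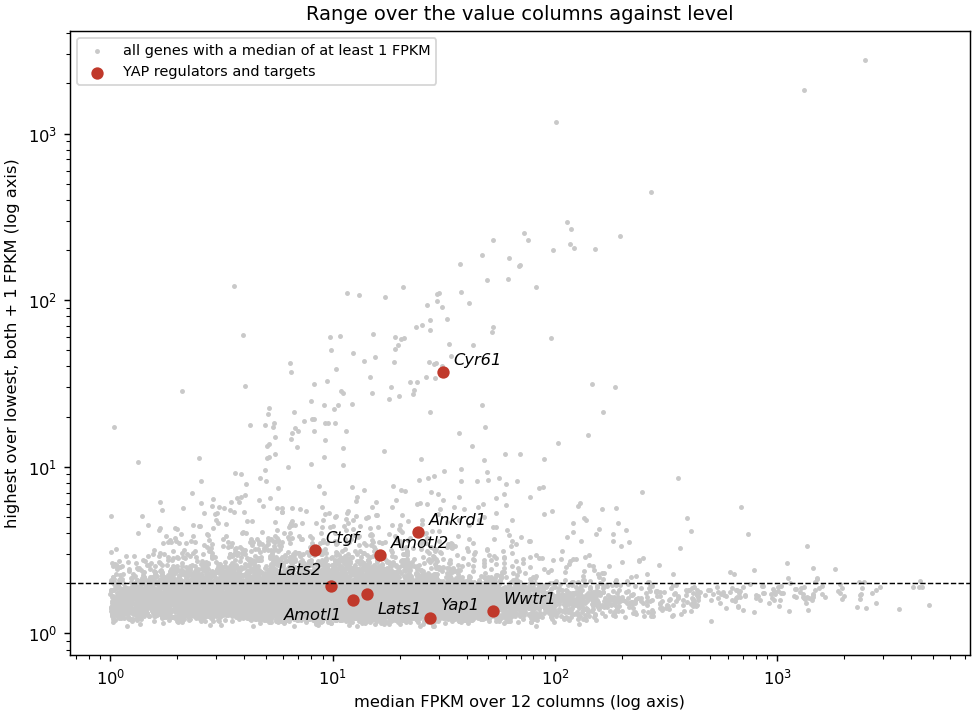
Range over the 12 value columns (highest over lowest value, both plus 1 FPKM, log axis) against median FPKM (log axis) for the 10390 genes with a median of at least 1 FPKM, with the 9 genes in red and the 2-fold line dashed. Cyr61 lies at 37.05-fold, Ankrd1, Ctgf and Amotl2 also lie above the line, and Yap1 lies below it, lowest of the 9, at 1.24-fold.

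Cyr61, which encodes a secreted integrin-binding protein of the CCN family, had by far the widest range of the 9. It had 250.2 FPKM in q10, 236 in q6, 167 in q7 and 151 in q2. It had 33.9 FPKM in q4 and in q3 and 28.7 in q8. It had 8.95 FPKM in q11, 8.69 in q5, 8.63 in q1, 6.70 in q9 and 5.78 in q12. The 12 values thus fell into 3 ranges with empty gaps between them, 5 columns up to 8.95 FPKM, 3 from 28.7 to 33.9 and 4 from 151 upward. Its range was 37.05-fold, wider than that of 99.4% of the genes with a median of at least 1 FPKM and of 98.8% of the 2943 genes within 2-fold of its median. The coverage of the transcript ran between 7.99 and 421 reads per base. The interval deposited with the value was 4.82 to 6.11 FPKM in q12 and 222 to 233 in q10, and the value in q10 lies above its own interval. That was so for Cyr61 in 7 of the 12 columns, so the deposited intervals are given for their width only.

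Ctgf, the CCN family relative of Cyr61 that promotes matrix production, had a different pattern and a low level. Its lowest value was 2.51 FPKM in q3, its median 8.31 and its highest 10.1 in q10. The low end was carried by a pair of columns: q11 followed at 4.54 FPKM, and the other 10 columns lay between 6.48 and 10.1. The range was 3.16-fold with all columns and 2.01-fold without q3. The deposited interval ran from 2.03 to 2.88 FPKM in q3 and from 8.70 to 10.7 FPKM in q10. The ratio of Cyr61 to Ctgf lay between 0.635 in q12 and 25.9 in q6, with a median of 4.31.

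Ankrd1, which encodes an ankyrin repeat protein of muscle sarcomeres and nuclei, was high in still other columns. It had 58.8 FPKM in q8, 47.2 in q7 and 38.9 in q4. The other 9 columns lay between 13.8 FPKM in q12 and 27.7 in q3, with a gap above 27.7. Its range was 4.04-fold around a median of 24.2 FPKM. The columns with the highest Cyr61 and the highest Ankrd1 were therefore not the same: q10 had 250.2 FPKM of Cyr61 and 26.2 of Ankrd1, whereas q8 had 28.7 FPKM of Cyr61 and 58.8 of Ankrd1. Only q7 was among the 4 highest columns for each. The r of Ankrd1 with the log2 depth of the columns was 0.43, and the part of depth in its range was not tested. Its value lay above its own deposited interval in 9 of 12 columns.

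**Figure D2:**
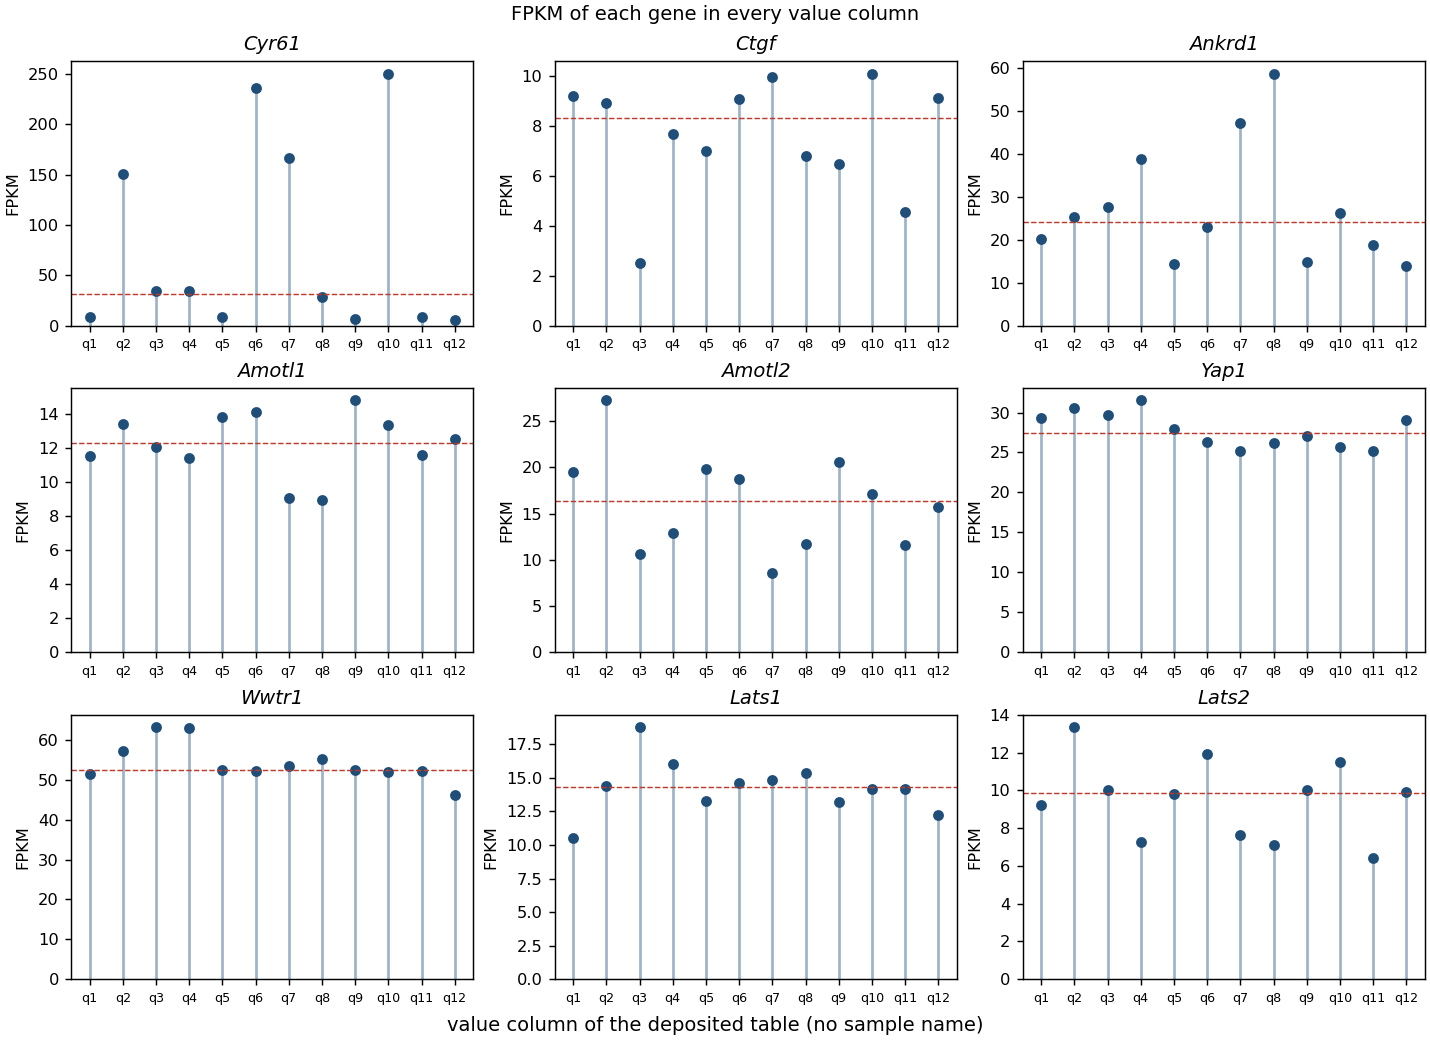
FPKM of each of the 9 genes (vertical axes, from 0) in the 12 value columns q1 to q12 (horizontal axes), with the median as a dashed line. Cyr61 falls into 3 separate ranges, Ankrd1 is highest in q8 at 58.8 FPKM, Ctgf is lowest in q3 at 2.51 FPKM, and Yap1 and Wwtr1 stay near their medians.

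The angiomotin-like genes encode scaffold proteins of cell junctions that bind YAP. Amotl2 had 8.57 FPKM in q7, its lowest value, a median of 16.4 and 27.2 in q2, its highest. Without q2 the highest value was 20.6 FPKM, in q9. Its range was 2.95-fold. Amotl1 varied less, from 8.95 FPKM in q8 through a median of 12.3 to 14.8 in q9, a range of 1.59-fold that was wider than that of 45.6% of the genes compared. Amotl1 stood at 9.09 and 8.95 FPKM in q7 and q8, and its other 10 columns lay at 11.4 or above. The ratio of Amotl2 to Amotl1 was above 1 in 9 of 12 columns, between 0.88 in q3 and 2.02 in q2.

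The coactivator genes were steady. Yap1 lay between 25.2 FPKM in q11 and 31.5 in q4, with a median of 27.5. Its range of 1.24-fold was narrower than that of most genes, since 2.93% of the 10390 genes had a smaller one. Wwtr1, the gene of TAZ, lay between 46.1 FPKM in q12 and 63.3 in q3, with a median of 52.4. It stood at 63.2 FPKM in q4 and at 57.3 or less in the other 10 columns, a range of 1.36-fold over all 12. Wwtr1 was above Yap1 in 12 of 12 columns, with a ratio of 1.59 to 2.13 and a median of 2.00. FPKM is per transcript length, so these levels can be set beside each other.

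Yap1 and Wwtr1 were each deposited as a pair of transcripts. The Yap1 transcripts NM_001171147 and NM_009534 differ in length by 48 bases. In the GENCODE annotation of GRCm38 NM_001171147 has 9 exons and NM_009534 has 8, and the exon that NM_009534 lacks is exon 6 of NM_001171147, fully coding, at chr9:7950492-7950539 on the minus strand. It is printed because reads over it and its junctions are what tells the transcripts apart.
Yap1 exon 6: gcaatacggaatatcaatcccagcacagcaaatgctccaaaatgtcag
NM_001171147 had 9.01 to 13.8 FPKM and NM_009534 had 14.2 to 18.8 FPKM, so the form without exon 6 was the more abundant in every column. The share of the form with exon 6 was lowest in q9, at 33.6% of the Yap1 FPKM, and highest in q3, at 46.7%, with a median of 40.5%. For Wwtr1, the share of NM_133784 lay between 35.4% in q5 and 61.3% in q1, with a median of 55.7%. NM_133784 and NM_001168281 differ by 79 bases in the table, and every annotated exon of each overlaps one of the other. Apart from q5, the share of NM_133784 was 47.3% or above. The split between transcripts that share most of their exons is an estimate, and the file gives no error for the share.

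**Figure D3:**
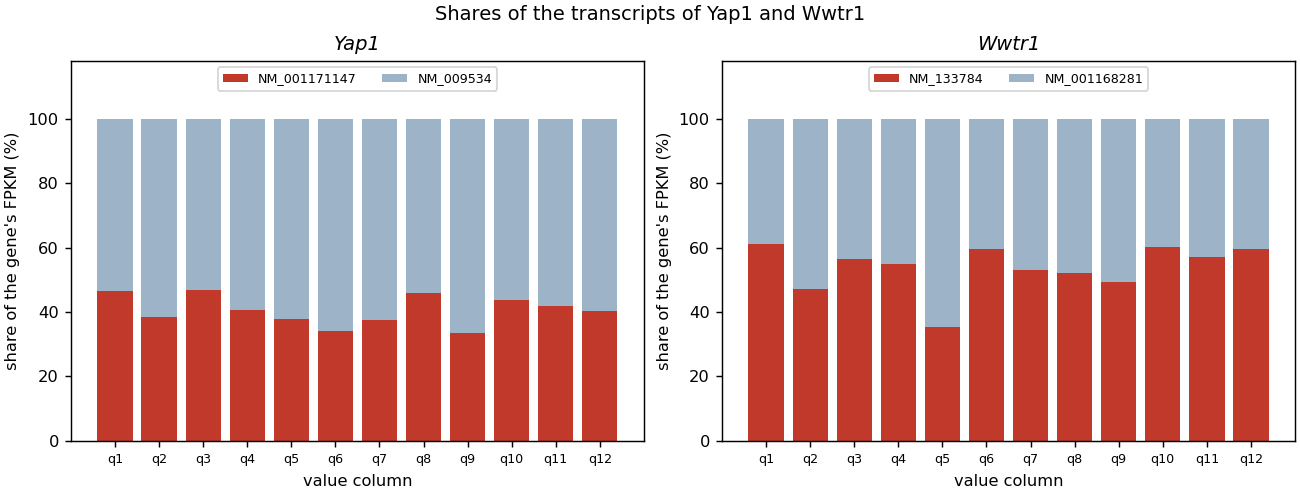
Share of each gene's FPKM in percent (vertical axis, from 0) taken by each of its transcripts in the 12 value columns (horizontal axis), for Yap1 and Wwtr1. For Yap1 the form with exon 6 (red) takes 33.6% to 46.7%, and for Wwtr1 the transcript NM_133784 (red) takes 35.4% in q5 and between 47.3% and 61.3% elsewhere.

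The kinase genes lay lower. Lats1 had 10.5 FPKM in q1, a median of 14.3 and 18.8 in q3. Its range was 1.72-fold, wider than that of 59.7% of the genes compared. It was 1.49-fold without q1, the shallowest column, and 1.48-fold without q3, which was 2.05 times as deep as q1. With the columns scaled by median-of-ratios factors it was 1.96-fold. The r of Lats1 with log2 depth was 0.575. The part of depth in this range was not tested. Lats2 had 6.41 FPKM in q11, a median of 9.86 and 13.3 in q2, a range of 1.93-fold that was wider than that of 75.8% of the genes compared. It lay between 6.41 and 7.64 FPKM in q11, q8, q4 and q7, and at 9.20 or above in the other 8 columns. Lats1 was above Lats2 in 12 of 12 columns, by 1.08 to 2.22 times. All of the Lats2 FPKM was that of the transcript NM_015771. The short transcript NM_153382 was listed at 0 in all 12 columns, with a deposited upper bound of at most 0.156 FPKM.

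By median level the order was Wwtr1, Cyr61, Yap1, Ankrd1, Amotl2, Lats1, Amotl1, Lats2 and Ctgf, between 52.4 and 8.31 FPKM. The ranges of every pair of neighbours in that order overlapped. Only Amotl1 was above its next lower neighbour, Lats2, in 12 of 12 columns. The place of Cyr61 among the 9 ran from the highest to the lowest, whereas Wwtr1 was highest or next to highest in every column.

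The target genes Cyr61, Ctgf, Ankrd1 and Amotl2 did not vary as a block. Over the 12 columns, their 6 pairs had a median Pearson r of 0.196 on log2(FPKM + 1). All 36 pairs of the 9 genes had a median of 0.0371, against 0.236 over all pairs of the 10390 genes. These r are descriptions over columns that share depth, composition and possibly samples. Cyr61 and Ankrd1 had r = 0.536 and Spearman's rho = 0.65, and without the pair of columns farthest from the Cyr61 median r was 0.709. Since Cyr61 falls into 3 ranges of at most 5 columns each, this r mostly sets those ranges against each other. Cyr61 and Ctgf had r = 0.341 and rho = 0.364. Ankrd1 and Amotl2, although both are known YAP targets, ran in opposite directions, with r = -0.575 and rho = -0.531. Without the pair of columns farthest from the Ankrd1 median that r was -0.292.

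The angiomotin-like genes and Lats2 varied together, and the cause was not tested. Amotl1 and Amotl2 had r = 0.763 and rho = 0.72, Amotl2 and Lats2 r = 0.744 and rho = 0.608, and Amotl1 and Lats2 r = 0.723 and rho = 0.776. Leaving out any single column kept these r between 0.647 and 0.834. Each column had a nearest other column at r of 0.967 to 0.984, such as q6 and q10 or q4 and q8. Leaving out 1 column therefore left a closely similar one in place. Without the pair of columns farthest from the median of the first-named gene, r was 0.645, 0.63 and 0.681 in the same order. Scaling the columns by median-of-ratios factors gave 0.613, 0.65 and 0.648 for the same pairs. Ankrd1 and Amotl1 had r = -0.784, or -0.597 with that scaling and -0.405 without the pair of columns farthest from the Ankrd1 median. Wwtr1 and Lats1 had r = 0.771 and rho = 0.818, and r = 0.942 with that scaling. The factors lay between 0.878 and 1.18, and Wwtr1 had a range of 1.36-fold. Dividing both genes by the same factors can therefore itself move their r. Without the pair of columns farthest from the Wwtr1 median, the unscaled r of Wwtr1 and Lats1 was 0.552. The r with log2 depth was -0.309 for Amotl1, -0.302 for Amotl2 and -0.218 for Lats2. It was 0.43 for Ankrd1, 0.26 for Wwtr1 and 0.575 for Lats1. The part of depth in the r between these genes was not tested. Yap1 had r between -0.202 and 0.451 with the other 8 genes, but some of these r moved widely with the scaling. With median-of-ratios factors the r of Yap1 with Lats1 went from 0.0241 to 0.556, and that with Amotl2 from 0.342 to -0.191. The largest move of any of the 36 pairs under a scaling was 0.533. The sign of 5 of the 36 pairs changed under a scaling: Ctgf with Amotl1, Amotl1 with Lats1, and Yap1 with Ankrd1, Amotl2 and Lats2.

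**Figure D4:**
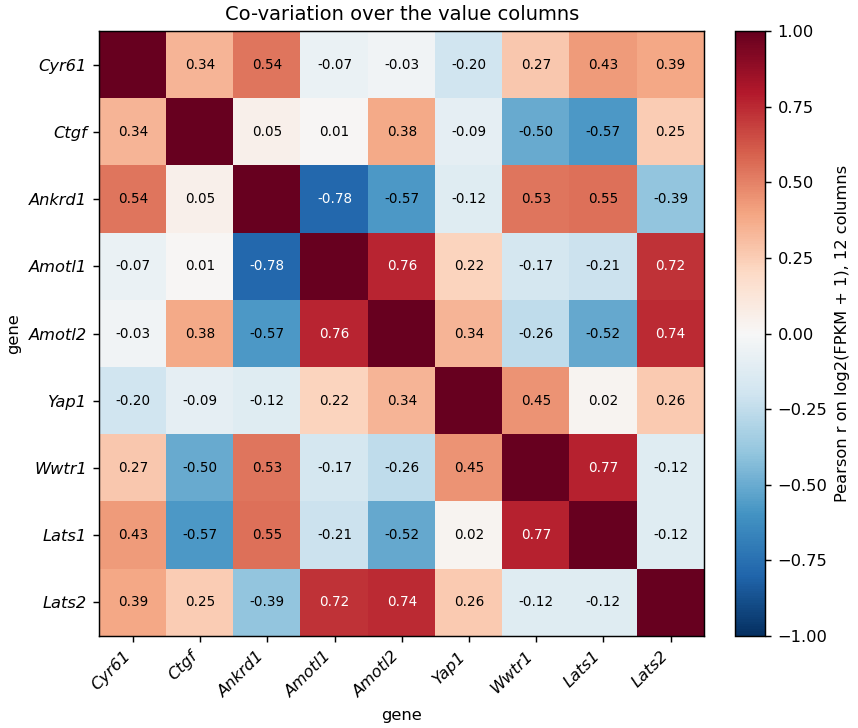
Pearson r on log2(FPKM + 1) over the 12 value columns for each pair of the 9 genes, from -1 (blue) to 1 (red). Amotl1, Amotl2 and Lats2 form red pairs of 0.72 to 0.76, Wwtr1 and Lats1 have 0.77, and Ankrd1 with Amotl1 has -0.78 with all 12 columns.

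The varying targets had r of 0.536 or below with each other. A gene closely like any of them could therefore hardly be as like another. That the genes named for each target differ is thus no further result, and the overlap for other genes was not computed. The genes most like each varying target are given as a description. They were taken from the 2171 other genes with a median of at least 1 FPKM and a range of at least 2-fold. Those most like Cyr61 were Klf6 (r = 0.977, rho = 0.965), Jun (r = 0.96), Junb (r = 0.957), Ier2 (r = 0.957) and Ccnl1 (r = 0.956). Klf6, Jun, Junb and Ier2 are known immediate early genes, and the first 3 encode transcription factors. Klf6 lay between 13.3 and 126 FPKM and Junb between 14.2 and 355 (r without the pair of columns farthest from the Cyr61 median was 0.966 for Klf6 and 0.932 for Junb).

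Those most like Ankrd1 were Gdnf (r = 0.948, rho = 0.874), Il11 (r = 0.938), Hbegf (r = 0.928), Elavl1 (r = 0.927) and Fam110c (r = 0.925). Gdnf, Il11 and Hbegf encode secreted factors, a neurotrophic factor, a cytokine and an EGF receptor ligand, and Elavl1 encodes an RNA-binding protein. Gdnf lay between 4.51 and 30.6 FPKM. Those most like Amotl2 were Ftx (r = 0.94, rho = 0.951), Lysmd1 (r = 0.925), Irs1 (r = 0.925), Harbi1 (r = 0.923) and Dok4 (r = 0.914). Irs1 and Dok4 encode adaptor proteins of receptor tyrosine kinases, and Ftx is a long non-coding RNA gene. Their levels were low, with medians of 1.82 to 5.14 FPKM.

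For Ctgf the likeness was weaker and rested on its lowest columns. The most like were Mir2137 (r = 0.822), Hist2h2bb (r = 0.756), Mir677 (r = 0.755), Snhg1 (r = 0.731) and Ubb (r = 0.703). Without the pair of columns farthest from the Ctgf median, r was between 0.359 and 0.553 for these 5. Mir2137 and Mir677 are microRNA precursors, which are short, and each was listed at 0 in at least 1 column and at 218 and 162 FPKM at most.

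**Figure D5:**
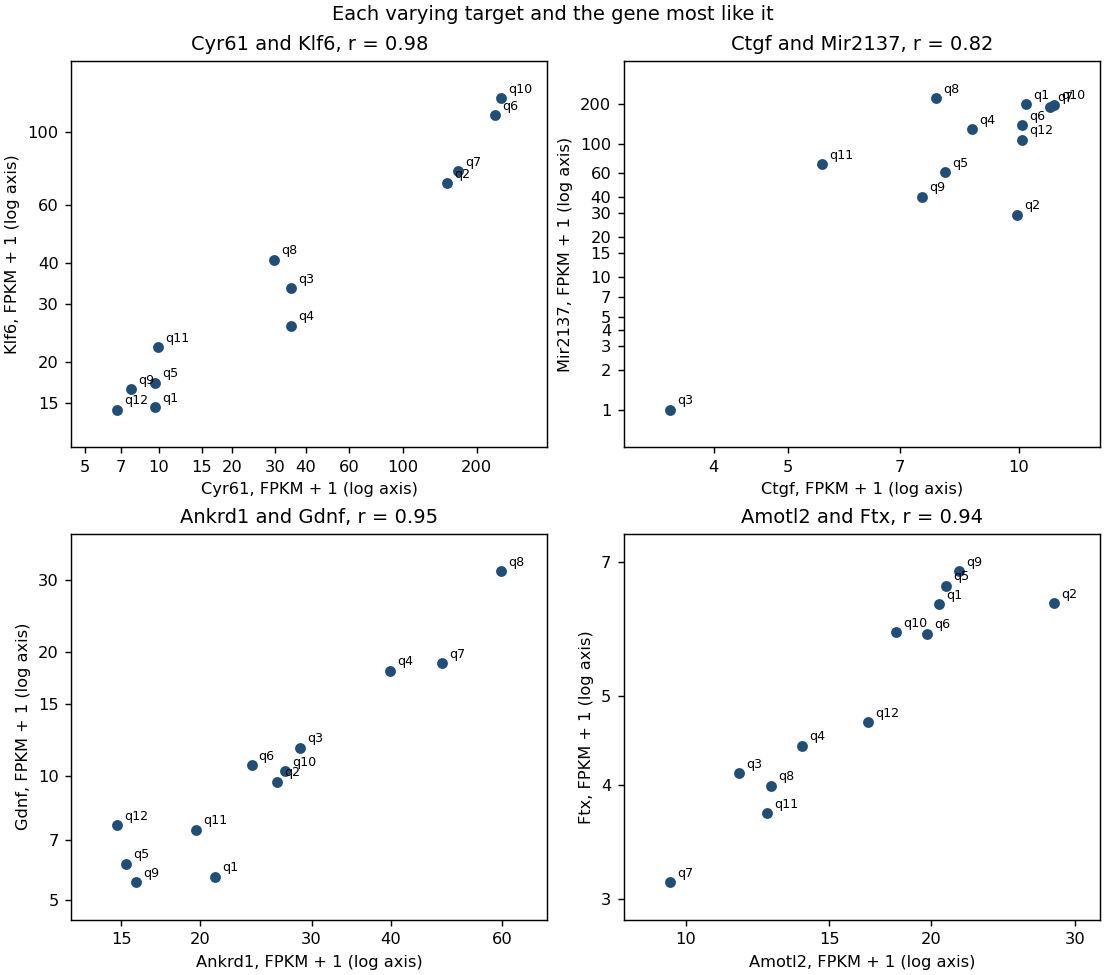
FPKM + 1 of the 4 varying targets (horizontal, log axes) against FPKM + 1 of the gene most like each (vertical, log axes), 1 point per value column. Cyr61 and Klf6 (r = 0.98), Ankrd1 and Gdnf (r = 0.95) and Amotl2 and Ftx (r = 0.94) follow a line, whereas for Ctgf and Mir2137 (r = 0.82) the point of q3 lies far from the other 11.

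Of 28 other genes of the Hippo pathway, all were in the table and 26 had a median of at least 1 FPKM. Of these 26, 5 had a range of at least 2-fold, against 20.9% of all genes, and none had 4-fold. Their median range was 1.60-fold, against 1.63-fold over all genes. The highest medians were those of Tead2 at 51.6 FPKM, the LATS cofactor gene Mob1a at 39.95 and the kinase gene Map4k4 at 38.1. The lowest were the atypical cadherin genes Fat4 and Dchs1, at 0.00144 and 0.0961 FPKM, and the scaffold gene Wwc1 at 3.13. Transcripts of all 4 TEAD factors were listed beside those of their coactivators: in addition to Tead2, Tead1 had a median of 18.2 FPKM, Tead3 of 12.98 and Tead4 of 7.56.

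Of the 5 Hippo pathway genes with the wider ranges, 3 had a positive r with Amotl2 and a negative one with Ankrd1, and the other 2 had the reverse. Ankrd1 and Amotl2 themselves had r = -0.575, so opposite signs can be common among varying genes. The share of all genes with opposite signs was not computed. Ajuba, whose LIM domain product restrains LATS kinases, lay between 2.23 and 8.93 FPKM and had r = 0.844 with Amotl2 and -0.682 with Ankrd1. Vgll3, a TEAD-binding cofactor gene, lay between 1.25 and 6.73 FPKM and had r = 0.697 with Amotl2 and -0.803 with Ankrd1. Vgll4, which encodes a repressor that competes with YAP for TEAD, lay between 6.12 and 13.99 FPKM and had r = 0.76 with Amotl2 and -0.279 with Ankrd1. Tead4 was highest in q8, at 16.2 FPKM, the column in which Ankrd1 was highest, and had r = 0.605 with Ankrd1, with rho = 0.189, and r = -0.366 with Amotl2. Mob1b lay between 8.01 and 18.3 FPKM and had r = 0.589 with Ankrd1 and -0.564 with Amotl2.

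Of 23 other reported YAP and TAZ targets, which include Ptpn14 of the pathway list, all were in the table and 18 had a median of at least 1 FPKM. Of these 18, 10 had a range of at least 2-fold, against 20.9% of all genes, and 5 had a range of at least 4-fold, against 3.11%. This list too was chosen with earlier results of these data known, so the counts are descriptions only. Their median range was 2.05-fold. The tissue factor gene F3 lay between 13.2 FPKM in q8 and 168 in q3 and had r = 0.47 with Cyr61. The thrombospondin gene Thbs1 lay between 27.0 FPKM in q1 and 220.1 in q3 and had r = 0.603 with Cyr61. Inhba, which encodes a subunit of activins, lay between 12.2 FPKM in q1 and 77.2 in q4 and had r = 0.822 with Ankrd1. Gadd45b, a stress response gene, lay between 4.80 FPKM in q8 and 24.3 in q11 and ran against Ankrd1, with r = -0.723. As with the 4 targets above, these genes did not share a single pattern, and Axl, a receptor tyrosine kinase gene used as a YAP readout, had a range of only 1.21-fold around a median of 138 FPKM. Many of them are also known to be induced by other pathways. Of 10 genes commonly taken as stable, 2 had a range of at least 2-fold, against 20.9% of all genes. The median range of the 10 was 1.61-fold, against 1.63-fold over all genes.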

How the data were processed

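Polyadenylated RNA from NIH3T3 OptoSOS cells was extracted with TRIzol and sequenced from TruSeq libraries, per the labels' protocols. Alignment and quantification used TopHat, Bowtie and Cufflinks on mm9, per the submitters' processing notes, which give no version here. The authors deposited FPKM, an interval, read coverage and length for each of 30273 transcripts in 12 columns of composite cells without a header. All 12 columns match no label of the 9 samples and were used unnamed. The members and lists were chosen with earlier results of these data known.

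FPKM was summed over the lines of a symbol (49 lines over the whole table hold several entries in a cell, which were summed). The range is the highest over the lowest value, both plus 1 FPKM, and genes with a median of at least 1 FPKM served as background. Pearson r was taken on log2(FPKM + 1), and Spearman's rho on ranks. For each of the 9 genes with a range of at least 2-fold, the 5 genes with the highest r among those with a like range were named. From the lists, genes were named by the highest and lowest medians and by ranges of at least 2-fold (Hippo pathway, where the 4 Tead genes were also named) or 4-fold (targets). Axl was chosen after its values were seen. Values of 1 gene of the target list are not reported here. The calculation of ranges, likeness and scale factors was run on simulated columns with independent noise. The noise of the real columns differs from that, so this does not show how these measures behave in the data. Alternatives were upper-quartile and median-of-ratios scaling, a pseudocount of 0.1, the highest line of a symbol, no filter, and leaving out each column. The deposited value lay outside its own interval for 13.2% to 25.0% of transcripts at 1 FPKM or above, depending on the column. The number of reads per column is not in the table, so depth is known only in relative terms, and no interval for counting error was computed. Python 3.11.15, pandas 2.3.3, NumPy 2.4.6 and matplotlib 3.10.9 were used.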

Additional observations from a re-analysis of the deposited data

How the results depend on the processing

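The number of the 9 genes with a range of at least 2-fold was 4 as reported, and 4 with upper-quartile scaling, with median-of-ratios scaling, with the highest line of a symbol and without any single column, and 5 with a pseudocount of 0.1, where Lats2 reached 2.06-fold. The share of all genes with such a range was 20.9% as reported, 15.7% with upper-quartile scaling, 15.8% with median-of-ratios scaling and 13.7% without the filter on low values. The scale factors lay between 0.922 and 1.13 for the upper quartile and between 0.878 and 1.18 for median of ratios. The median r of the target pairs was 0.196 as reported, 0.0944 with Spearman's rho, and 0.123 to 0.258 without a single column. Taking only the highest line gave Yap1 a median of 16.6 FPKM and Wwtr1 29.4 FPKM, since each has a second transcript. Of the ranges of single genes, that of Ctgf moved by over 1.5 times, to 2.01-fold without q3. No paired analysis was possible because no column carries a replicate number. Depth limits the low values: the coverage of Ctgf was 4.76 reads per base at its lowest and that of Cyr61 was 7.99.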
